A study of Mus musculus with 36 samples.

Results

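A set of 118 mRNAs was short-lived in mouse embryonic stem cells (mESCs) whether the cells were left untreated or were given G418 or puromycin, out of 10325 mRNAs listed. These mRNAs were chosen by their measured values: an average of at least 500 and fewer than 10000 sequencing reads, a half-life of at most 100 min in each of the 3 conditions, and a largest half-life less than 2 times the smallest. Their short half-lives and the closeness of their half-lives across conditions are therefore set by the choice, and they are described here without a test. They make up 1.14% of all listed mRNAs and 2.02% of the 5834 mRNAs in the same read range, and the other 5716 mRNAs of that range serve as the comparison.

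The half-lives come from SLAM-Seq of E14Tg2a cells, an established mESC line, kept in 2i medium, which holds the cells in a pluripotent state. All cells were labeled for 24 h with 100 µM 4-thiouracil and then moved to 10 mM uridine with no antibiotic (control), with 0.1 µg/mL G418 or with 0.1 µg/mL puromycin. Cells were taken 0, 1, 2, 4, 8 and 24 h into this chase, 2 replicates each, for 12 libraries per condition and 36 in all. The deposited table gives 1 half-life in minutes per mRNA and condition, in which time points and replicates are already combined, so the values below carry no replicate error.

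An mRNA is in most cases degraded after its poly(A) tail is shortened by deadenylases such as the Ccr4-Not complex, followed by removal of the cap and digestion from the ends. Short-lived mRNAs in mammalian cells typically encode proteins whose amounts must change quickly, such as transcription factors, signalling inhibitors and cell cycle regulators, and many carry AU-rich or other destabilizing elements. Translation is tied to decay, and the antibiotics used here both act on the ribosome, G418 by making it misread codons and puromycin by releasing unfinished peptides. In SLAM-Seq, 4-thiouracil left in an mRNA is read as a U to C conversion after alkylation, and the loss of converted reads during the chase gives the half-life. The table names transcripts by UCSC identifiers, and none of the 10325 identifiers could be paired with a gene name or sequence in the annotation used here. Which proteins the short-lived mRNAs encode, their sequences, and the pluripotency markers that would check the cell type were for this reason not analysed here.

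Few mRNAs were short-lived in every condition, although about 1 in 10 was so in any given condition. In the read range, 610 mRNAs (10.5%) had a half-life of at most 100 min in control cells, 620 (10.6%) with G418 and 543 (9.31%) with puromycin. The limit was met by 242 mRNAs (4.15%) in control and G418 together, by 216 (3.70%) in control and puromycin, and by 229 (3.93%) in G418 and puromycin. It was met in a single condition by 804 mRNAs, in 2 conditions by 282 and in all 3 by 135. Thus 22.1% of the mRNAs that were short-lived in control cells were also short-lived with each antibiotic. Over all mRNAs of the read range, the share short-lived with both antibiotics was lower, at 3.93%. The mRNAs selected on the control half-life alone had a median of 83.3 min there, against 111 min with G418 and 118 min when puromycin was given. Those selected on G418 alone had a median of 82.9 min there, against 114 min in control and 115 min for puromycin. Whichever condition was used for the selection, the median in the other conditions was above the limit. The selection itself sets the low median in its own condition. The difference from the other conditions is therefore a description only and was not tested. Of the 135 mRNAs, 17 had half-lives that differed by 2 times or more, which leaves 118.

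Among the 118 short-lived mRNAs, control half-lives ranged from 20.7 to 99.8 min with a median of 74.3 min and quartiles of 58.8 and 86.1 min. With G418 they ranged from 25.3 to 99.3 min with a median of 77.8 min and quartiles of 63.6 and 87.2 min. With puromycin the range was 27.0 to 98.9 min, the median 68.7 min and the quartiles 59.0 and 84.7 min. The SD over mRNAs was 18.1 min in control, 16.5 min for G418 and 16.8 min for puromycin. The 3 distributions overlapped over nearly their whole range. Many of these values lay close to the limit: 52 of the control half-lives, 50 of those with G418 and 43 of those with puromycin were from 80 to 100 min.

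**Figure D1:**
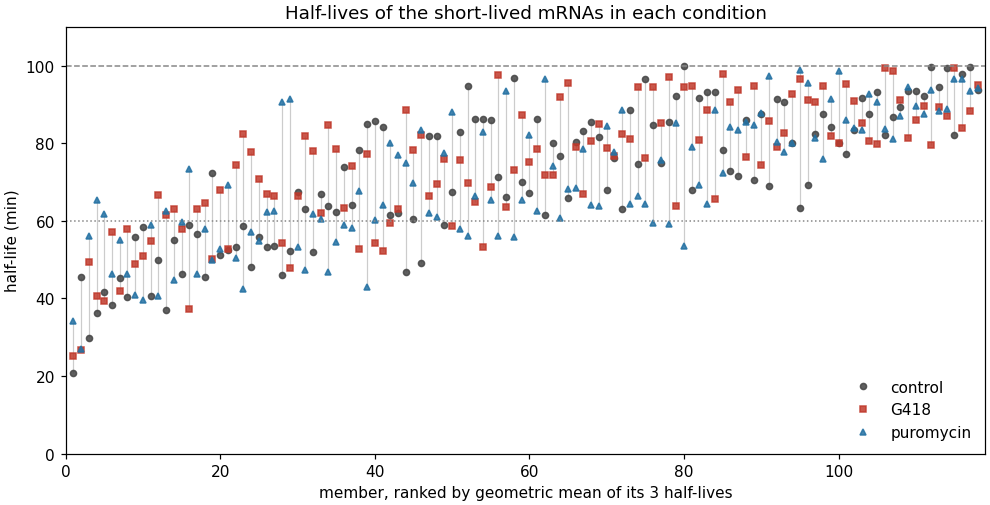
Half-lives in minutes of each of the 118 short-lived mRNAs in control (circles), G418 (squares) and puromycin (triangles), ranked by the geometric mean of the 3 values. Grey bars join the extremes of an mRNA, the dashed line is the 100 min limit and the dotted line the first chase point after the start, 60 min; 10 mRNAs lie wholly below 60 min.

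The first harvest after the start of the chase was at 1 h, so half-lives under 60 min place the loss of 50% of the label before that harvest. Half-lives were under 60 min for 32 of the short-lived mRNAs in control, 23 with G418 and 34 with puromycin. They were under 60 min in every condition for 10 mRNAs, at least 60 min in every condition for 65, and on different sides for 43. Under the exponential curve that was fitted, an mRNA with the median control half-life keeps 57.1% of its label at 1 h, 32.6% at 2 h, 10.6% at 4 h and 1.13% at 8 h. For the median half-life with G418 the shares are 58.6%, 34.3%, 11.8% and 1.39%, and with puromycin they are 54.6%, 29.8%, 8.89% and 0.790%. For the other mRNAs of the read range the curve leaves 39.9% at 4 h and 15.9% at 8 h in control. The 8 h and 24 h harvests thus hold little of the label on the short-lived mRNAs. These shares are computed from the half-lives and were not measured one by one.

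The shortest-lived mRNA had a half-life of 20.7 min in control, 25.3 min under G418 and 34.3 min under puromycin, with 955 reads on average. The next by geometric mean had 45.6, 26.7 and 27.0 min in the same order of conditions. The third had 29.7, 49.4 and 56.0 min, with 3366 reads. The condition with the shortest half-life was thus not the same for these mRNAs. At the other end, the mRNA with the longest geometric mean also had the most even half-lives of the set, at 93.8, 94.9 and 94.1 min, with 6239 reads. The next most even had 76.1, 76.6 and 77.7 min, with 3383 reads. The mRNA with the most reads, 8132, had 62.9, 82.3 and 88.6 min, and the next, with 6538 reads, had 99.7, 88.4 and 93.5 min.

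The 4 mRNAs with the most extreme ratios of G418 over control are given by identifier. The half-life of uc009rfx.1 was 45.6 min in control but 26.7 min with G418 and 27.0 min under puromycin, a log2 ratio of -0.77 for G418 over control (1061 reads). The short-lived mRNA with the neighbouring identifier went the other way, with 36.3 min in control, 40.7 min for G418 and 65.4 min for puromycin (985 reads). The half-life of uc012fht.1 was 86.2 min in control, 83.0 min with puromycin and 53.3 min with G418, a log2 ratio of -0.69 (702 reads). In uc009rfx.1 both antibiotics gave a shorter half-life than control, and in uc012fht.1 puromycin was close to control. In the opposite direction, uc009fxf.1 had 46.9 min in control, 75.0 min under puromycin and 88.6 min under G418, a log2 ratio of 0.92 (903 reads). The half-life of uc007odz.2 was 49.0 min in control but 82.2 min with G418 and 83.5 min under puromycin, a log2 ratio of 0.75 (1219 reads). In both of these mRNAs the control half-life was the low value and both antibiotics gave longer half-lives.

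The other mRNAs of the read range had a median half-life of 181 min in control, 173 min under G418 and 189 min under puromycin. Their order of medians, G418 shortest and puromycin longest, was the reverse of that in the short-lived mRNAs, where puromycin had the lowest median and G418 the highest. With at least 1000 reads this reversal was not complete, since the medians of the short-lived mRNAs were then 79.2 min in control, 75.5 min for G418 and 68.7 min for puromycin. By class of read number, the full reversal of medians was seen only in the 30 short-lived mRNAs from 2000 to under 4000 reads. Within these 30, G418 gave a shorter half-life than control for 18, and a shorter one than puromycin for 15. Puromycin was below control for 15 of them. From 4000 reads, the 9 short-lived mRNAs had the order of the other mRNAs. The medians of these 9 were 74.4 min for G418, 80.1 min for control and 82.1 min for puromycin. Among the 5716 other mRNAs, half-lives under 60 min numbered 48 in control (0.840%), 58 with G418 (1.01%) and 55 with puromycin (0.962%). A single one of the 5716 was under 60 min in every condition. The choice sets this count. An mRNA under 60 min throughout, with its largest half-life under 2 times the smallest, belongs to the short-lived set. The choice also lowers the counts by condition.

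**Figure D2:**
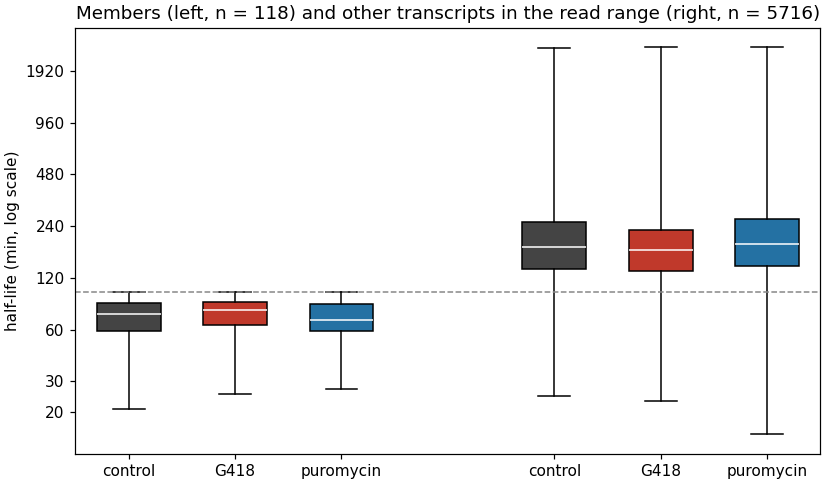
Half-lives in minutes on a log scale in control, G418 and puromycin for the 118 short-lived mRNAs (left) and the 5716 other mRNAs of the read range (right). Boxes span the quartiles with the median as a white line, whiskers run from the lowest to the highest value, and the dashed line is the 100 min limit that the choice of the short-lived mRNAs sets.

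The largest half-life of a short-lived mRNA was 1.35 times its smallest at the median, and this ratio ranged from 1.01 to 1.98. It was under 1.5 times for 87 of the 118 (73.7%) and under 1.2 times for 25 (21.2%). The choice caps this ratio at 2, and 4140 other mRNAs meet the same cap. Their median ratio was 1.43, 58.2% of them were under 1.5 times and 17.5% under 1.2 times. The short-lived mRNAs were chosen on this ratio and on a limit of 100 min in every condition, so these values do not show whether short-lived mRNAs are more even across conditions than others.

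**Figure D3:**
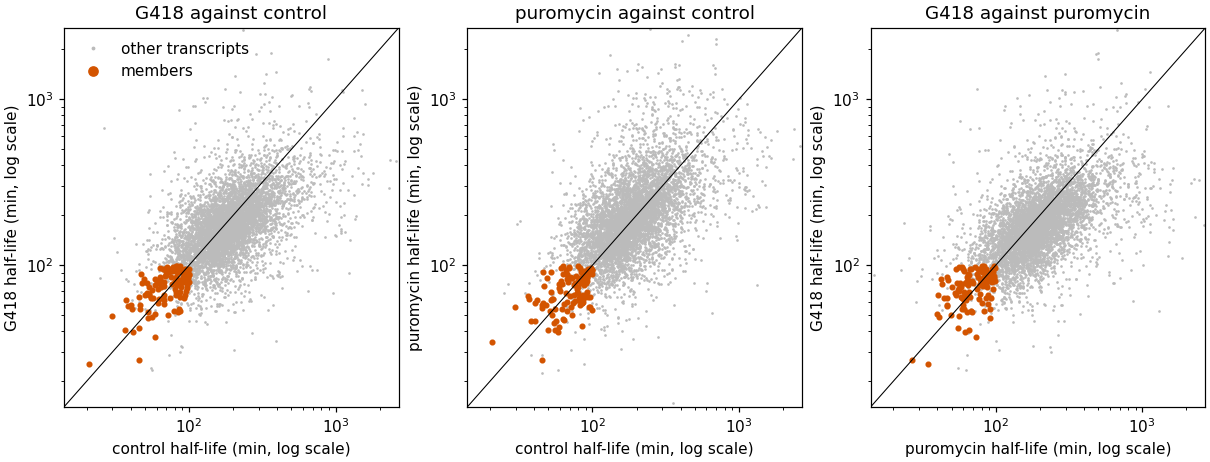
Half-life in minutes in one condition against another on log axes, for G418 and control, puromycin and control, and G418 and puromycin. Orange points are the 118 short-lived mRNAs, grey points the 5716 other mRNAs of the read range, and the line marks equal half-lives; the orange points fill the corner under 100 min on both sides of the line.

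Correlations between conditions in the short-lived set are shaped by the choice and are given as a description only. Across the 118 mRNAs, which share the same libraries and are not independent replicates, the Spearman correlation of half-lives was 0.47 for G418 and control, 0.43 for puromycin and control, and 0.40 for G418 and puromycin. In all 5716 other mRNAs it was 0.53, 0.54 and 0.55, and in the 4140 capped ones 0.69, 0.71 and 0.70. The values were thus higher in the capped mRNAs than in all others. Both the cap and the half-life limit bear on the correlations of the short-lived set, which do not show how well the order is kept.

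Ratios between conditions in the short-lived set lay on both sides of 0, within the bounds that the choice sets. The log2 ratio of G418 over control had a median of 0.024, which is 1.69% longer. Its quartiles were -0.17 and 0.33 and its SD over mRNAs was 0.35. The sign of this median turned with the choice of mRNAs: it was -0.024 with at least 1000 reads and -0.023 with at least 60 min in every condition, while it was 0.15 with no cap on the ratio. The log2 ratio of puromycin over control had a median of -0.049, quartiles of -0.33 and 0.26, and an SD of 0.41. Both ratios share the control half-life. For G418 over puromycin the median was 0.087, the quartiles were -0.16 and 0.33, and the SD was 0.38. In the 5716 other mRNAs the medians were -0.091, 0.051 and -0.16 in the same order of ratios, and in the 4140 capped ones -0.065, 0.035 and -0.11. Each median in the short-lived set thus had the opposite sign to that of the other mRNAs. This did not hold for G418 over control under 2 of the alternatives just given. It did not hold for any of the ratios in the 60 mRNAs with fewer than 500 reads that met the same half-life criteria, whose medians were -0.13, 0.0014 and -0.050. These differences were not tested, since the ratios follow in part from the choice and there is no replicate value.

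The counts by direction followed the medians. G418 gave a shorter half-life than control for 54 of the 118 short-lived mRNAs (45.8%), against 56.5% of the other mRNAs, but for 51.4% of the short-lived mRNAs with at least 1000 reads. Puromycin gave the shorter half-life relative to control for 65 (55.1%), against 46.6%. Of the antibiotics, G418 gave the shorter half-life for 49 (41.5%), against 61.5%. A difference of at least 1.5-fold was less frequent in the short-lived set than in all other mRNAs of the read range. With G418, 5 mRNAs were at least that much shorter than in control (4.24%) and 7 longer (5.93%), against 20.2% and 12.9% of the other mRNAs. With puromycin, 5 were shorter (4.24%) and 10 longer (8.47%) than in control, against 15.0% and 20.5%. For G418 over puromycin, 7 were shorter (5.93%) and 10 longer (8.47%), against 23.0% and 11.4%. The cap of 2 times holds these counts down, and in the 4140 capped mRNAs the shares were 12.1% and 7.46%, 7.71% and 11.7%, and 13.4% and 6.45% for the same pairs.

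**Figure D4:**
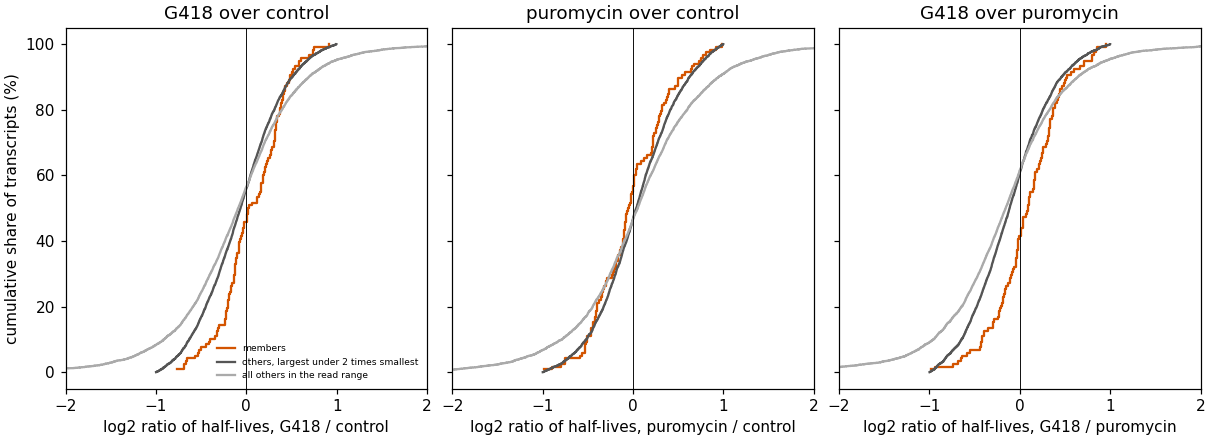
Cumulative share of mRNAs in percent against the log2 ratio of half-lives for each pair of conditions, in the 118 short-lived mRNAs (orange), the 4140 other mRNAs whose largest half-life is under 2 times the smallest (dark grey) and all 5716 others of the read range (light grey). At a ratio of 0 the orange line stands at 45.8% in the panel of G418 over control and 41.5% in that of G418 over puromycin, below the grey lines, and at 55.1% for puromycin over control, above them.

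Read across the 3 conditions at once, every order of half-lives occurred. From shortest to longest, the order puromycin, G418, control held 25 of the short-lived mRNAs, puromycin, control, G418 and control, puromycin, G418 held 22 each, control, G418, puromycin held 20, G418, puromycin, control held 18 and G418, control, puromycin held 11. The last of these, the order in which G418 shortens and puromycin lengthens the half-life, took 9.32% of the short-lived mRNAs. It took 21.6% of the other mRNAs, where it was the most frequent, and 21.3% of the capped ones. The shortest half-life was with puromycin for 47 of the short-lived mRNAs (39.8%), in control for 42 (35.6%) and with G418 for 29 (24.6%). In the other mRNAs these shares were 25.9%, 31.8% and 42.3%. Both antibiotics gave a shorter half-life than control for 43 of the short-lived mRNAs (36.4%) and a longer one for 42 (35.6%), near the 35.0% and 31.8% of the other mRNAs.

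Within the read range, the median read number of the short-lived mRNAs was 1.22 times that of the other mRNAs, a description only, since read number was part of the choice. Their average read number had a median of 1277, with quartiles of 893 and 2298 and a range of 503 to 8132, against a median of 1049 in the other mRNAs and 1166 in the capped ones. Summed over all libraries, the least-read short-lived mRNA had 18108 reads and the most-read 292738, and the 118 together took 1.44% of the 14634046 reads that an average library placed on listed mRNAs. Each read number averages every library of every condition, so the depth of one library or condition is unknown, and the number of converted reads behind each half-life is not listed.

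The share of mRNAs that met the half-life criteria was highest from 2000 to under 4000 reads. It was 1.75% (48 of 2748) from 500 to under 1000 reads, 1.71% (31 of 1813) from 1000 to under 2000, 3.40% (30 of 882) from 2000 to under 4000, and 2.30% (9 of 391) from 4000 to under 10000. The cap on the ratio was met by 63.2% of mRNAs in the lowest of these classes and 89.3% in the highest, so the read number bears on the choice through the cap as well. The largest half-life over the smallest fell with reads in the short-lived mRNAs too, from a median of 1.40 in the lowest class to 1.34, 1.33 and 1.22. In the lowest class G418 half-lives were below those of control for 18 of 48 short-lived mRNAs, and in the classes above it 14 of 31, 18 of 30 and 4 of 9. For puromycin below control the counts were 25 of 48, 21 of 31, 15 of 30 and 4 of 9. For G418 below puromycin they were 18 of 48, 10 of 31, 15 of 30 and 6 of 9. The directions of the whole set thus did not hold in every class.

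**Figure D5:**
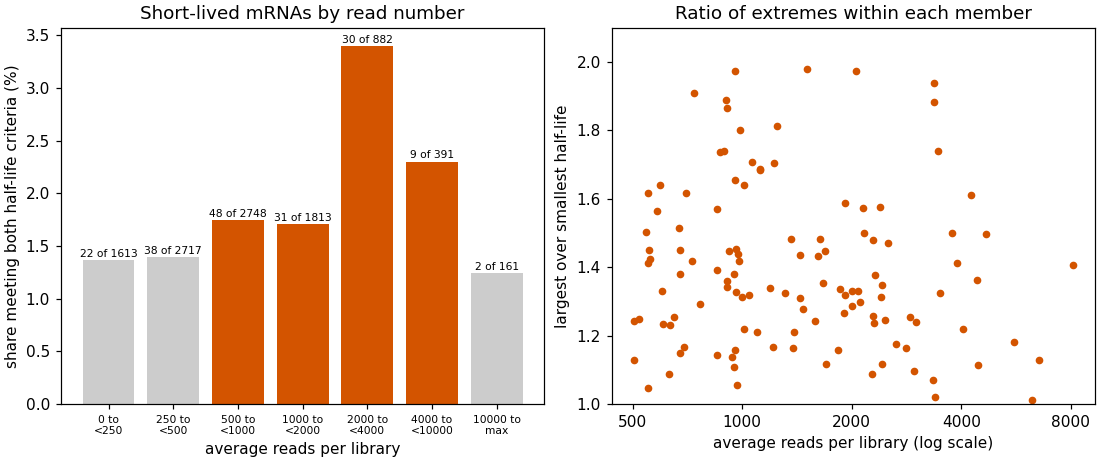
Left, share in percent of mRNAs that met the half-life criteria in each class of average reads per library, orange for the classes of the read range and grey for those outside it, with counts above the bars. Right, largest over smallest half-life of each short-lived mRNA against its average reads on a log scale, where the medians fall from 1.40 under 1000 reads to 1.22 from 4000 reads.

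Short half-lives were also found in transcripts with neighbouring identifiers, a property that the choice did not use. Of the 118 short-lived mRNAs, 25 (21.2%) had an identifier directly next to that of another short-lived mRNA, in 11 runs of consecutive identifiers, the longest with 4 members. Of the other mRNAs of the read range, 42 (0.735%) had an identifier next to that of a short-lived mRNA. A neighbouring identifier of any kind was listed about as often for both, for 63.6% of the short-lived mRNAs and 64.3% of the others. Neighbours that were not themselves in the short-lived set, but lay in the read range, numbered 42 and had median half-lives of 159 min in control, 136 min under G418 and 128 min under puromycin. Of these 42, 12 had a half-life of at most 100 min in control (28.6%), 14 with G418 (33.3%) and 13 with puromycin (31.0%). For the neighbours of the other mRNAs the shares were 8.30%, 7.84% and 6.84%, and the medians 178, 172 and 188 min.

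Within the 11 runs, half-lives of neighbours were little closer to each other than those of short-lived mRNAs in general. The largest was 1.27 times the smallest at the median in control, 1.21 times with G418 and 1.24 times with puromycin, with the widest run at 2.42 times with puromycin. Taken as pairs, the longer half-life was 1.25 times the shorter at the median of 18 pairs within runs in control, 1.19 times with G418 and 1.204 times with puromycin. Over all 6903 pairs of short-lived mRNAs these medians were 1.29, 1.23 and 1.29, so ratios nearly as small are found without regard to runs. Both sets of pairs hold only mRNAs of at most 100 min in every condition, which keeps all these ratios small. The comparison therefore does not show how alike the half-lives of neighbours are. Read numbers were closer within runs, with a median ratio of 1.05 against 1.92. The run with 4 members had control half-lives of 73.9, 61.4, 84.1 and 59.0 min and read numbers of 2893, 2421, 2421 and 2413. Read numbers differed by less than 1.1 times within 7 of the 11 runs. Whether neighbouring identifiers stand for transcripts of the same gene, and how reads common to several transcripts were assigned, is not given in the sources used here, so members of a run cannot be taken as independent measurements. When only the most-read member of each run was kept, 104 mRNAs remained, with median half-lives of 75.5 min in control, 78.9 min under G418 and 69.2 min under puromycin.

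Among mRNAs that met the other criteria, the half-life limit has many on both sides, whereas the upper read limit falls in a wide gap. The mRNAs just inside the half-life limit had largest half-lives of 99.8 and 99.7 min, and those just outside, with the ratio criterion met, 100.5 and 100.6 min. The largest half-life was over 90 min for 51 of the 118, and from 100 to 110 min for 58 further mRNAs that met the other criteria. At the ratio limit, the largest over the smallest half-life was 1.98 and 1.97 just inside, and 2.05 and 2.08 just outside. The 17 mRNAs that failed only the ratio limit had ratios from 2.05 to 4.18 and medians of 45.3 min in control, 79.9 min under G418 and 63.2 min under puromycin. Their half-life was shortest in control for 8 and longest with G418 for 10, and their median read number was 781. Of the other mRNAs of the read range, 31.8% were shortest in control and 24.2% longest with G418. The difference from these 17 mRNAs was not tested. At the lower read limit, read numbers were 503 and 503 just inside and 484 and 476 just outside. At the upper one they were 8132 and 6538 inside, and 12519 and 12631 outside. This gap is one of mRNAs that met the half-life criteria only. The other mRNAs of the read range reached 9981.5 reads, and 161 mRNAs lay above the range.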

How the data were processed

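SLAM-Seq was carried out in mESCs under 3 conditions, each at 6 chase times with 2 replicates, and samples were grouped by the antibiotic named in their labels. In the authors' processing, read pairs were placed on mouse transcripts by Bowtie2 (version not given in the sources used here; mm10 in the methods, mm10 and GRCm39 in the submitters' processing notes), reads with U to C conversions were counted, and exponential decay was fitted over the chase. The table lists average read counts and, for each condition, a half-life in minutes. The read counts became whole numbers (within 0.01) for 100% of mRNAs when multiplied by 36. No filter or scaling between conditions is stated, and half-lives were used as deposited. A half-life fitted from few converted reads is imprecise, and no interval could be computed.

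The members, the read range and the limits were chosen with earlier results of these data known. Log2 ratios were computed within each mRNA and described by medians, quartiles, SD and counts, with no p-value, since mRNAs are not replicates. Identifiers are printed for the 2 lowest and 2 highest ratios of G418 over control. Neighbouring identifiers differ by 1 in their letter code. Alternatives were other limits on half-life, ratio and reads, centred half-lives, means, and 1 mRNA per run of identifiers. The selection was also run on simulated data as a self-test, and no value given here comes from that run. Software was matplotlib 3.10.9, scipy 1.17.1, pandas 2.3.3, numpy 2.4.6 and python 3.11.15.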

Additional observations from a re-analysis of the deposited data

How the results depend on the processing

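Of 68 alternative values for 11 results, 65 lay within their limits, which were 1.5 times for the number of short-lived mRNAs and the 95% binomial interval over mRNAs for medians and shares. That interval treats mRNAs as independent and is wide enough to hold a change of sign, so it only marks large shifts. The number of short-lived mRNAs was 67 with a half-life limit of 90 min, 70 with at least 1000 reads and 180 with no limit on reads, in place of 118; these follow from narrower or wider criteria. After half-lives were centred by condition the number was 119, of which 109 were among the 118, and G418 over puromycin had a median log2 ratio of 0.14. Centring adds 0.063 to the log2 half-lives with G418 and -0.064 to those with puromycin. It thus moves each ratio toward the sign already seen, and for the same mRNAs it could not turn the sign of a median. The median ratio of G418 over control ranged from -0.024 to 0.15 over its alternatives and changed sign with at least 1000 reads and with at least 60 min in every condition. Those of puromycin over control (-0.089 to -0.015) and G418 over puromycin (0.038 to 0.14) kept their sign in these alternatives, but not in the 60 mRNAs with fewer than 500 reads taken alone (0.0014 and -0.050). Keeping 1 mRNA per run of identifiers, an alternative chosen after seeing the data, left every result within its limits. It keeps 104 of the same 118 mRNAs, so results could hardly leave those limits, and it does not show that runs have no bearing.

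No paired analysis was possible because each half-life combines the replicates, and for the same reason leaving out a replicate was not run.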

Other observations

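Short-lived mRNAs were also present outside the read range. Among the 4330 mRNAs with fewer than 500 reads, 81 had half-lives of at most 100 min in all conditions, and 60 of these (1.39% of the 4330) also had a largest half-life under 2 times the smallest. Their medians were 77.0 min in control, 71.3 min under G418 and 80.9 min under puromycin. In these 60 mRNAs the log2 ratio of G418 over control had a median of -0.13, that of puromycin over control 0.0014 and that of G418 over puromycin -0.050. G418 gave the shorter half-life of the first pair for 40 of 60 (66.7%). In the 118 mRNAs of the read range the share was 45.8%. The difference between these groups was not tested, and the half-lives of the former group rest on fewer reads.

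Of the 161 mRNAs with at least 10000 reads, 2 met the half-life criteria. The half-lives of the former were 70.0 min in control, 66.8 min under G418 and 55.0 min under puromycin (12519 reads), and those of the latter were 72.3, 82.6 and 89.3 min (12631 reads). G418 and puromycin were thus both below control in the former and both above it in the latter.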
